A study of Mus musculus with 2 samples.

Results

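The 40 genes described here encode plasma proteins that the liver secretes: carriers, apolipoproteins, clotting factors and protease inhibitors, with the adhesion protein vitronectin. They were chosen by gene symbol for the proteins they encode, with earlier results of these data known, from the 43346 Ensembl genes of the deposited tables, of which 21474 are protein-coding. They were measured by total RNA sequencing of mouse stomach at embryonic day 16.5 in 1 group of 2 biological replicates. Each replicate pooled the stomachs of both sexes from healthy embryos of strain B6NCrl, with no treatment or genetic change named. The pool of replicate 2 held 41 embryos, and the labels give no number for replicate 1. RNA longer than 200 nucleotides was used, with an input of 10 ng per library and with ERCC spike-ins, which are synthetic RNAs of known amount. The labels name the replicates as biological, and the spread given below is that between these pools.

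Hepatocytes are the main source of most plasma proteins, which they release into the blood to carry lipids, metals and hormones and to drive and restrain clotting. In the fetus the yolk sac makes many of the same proteins, and the absorptive cells of the intestine make several apolipoproteins. A group of hepatic transcription factors, among them HNF4, FOXA and C/EBP proteins, binds the promoters of many of these genes.

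Replicate 1 held 44567153 expected counts and replicate 2 held 25677702, and the spike-ins took 3.08% and 2.05% of it. The labelled tissue was present by its markers: all 16 genes of a stomach epithelium list and all 7 of a stomach mesenchyme list reached 1 TPM in both libraries. TPM gives a gene's share of the transcript pool per unit of length, so that levels can be compared between genes. The libraries stood apart in skeletal muscle genes, whose list median was 107.63 TPM in replicate 1 and 3.79 TPM in replicate 2. Stomach epithelium genes went the other way, with list medians of 42.0 and 60.8 TPM.

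Plasma protein transcripts were present in the stomach RNA of both pools. Of the 40 genes, 37 reached 1 TPM in both libraries, beside 64.3% of all protein-coding genes. Their summed level was 3099 TPM in replicate 1 and 2529 TPM in replicate 2, a mean of 2814 ± 403 TPM (SD, n = 2). As a share of all gene counts they took 0.309% (95% Wilson interval 0.308% to 0.311%) of replicate 1 and 0.245% (0.243% to 0.247%) of replicate 2, and these intervals, which cover counting error only, did not overlap. The median gene of the set stood at 24.3 ± 3.82 TPM. By mean level, 7 genes reached 100 TPM, 26 lay between 10 and 100, 4 between 1 and 10, and 3 below 1. The 5 highest, Apoa1, Afp, Trf, Apoa2 and Apoa4, held 57.3% of the summed TPM. The order of the genes was nearly the same in both libraries, with a Spearman rho of 0.993 over the 40 genes, which is given as a description across genes that share a library. In bulk tissue, a difference in the number of cells that make a transcript and a difference in RNA per cell cannot be told apart.

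**Figure D1:**
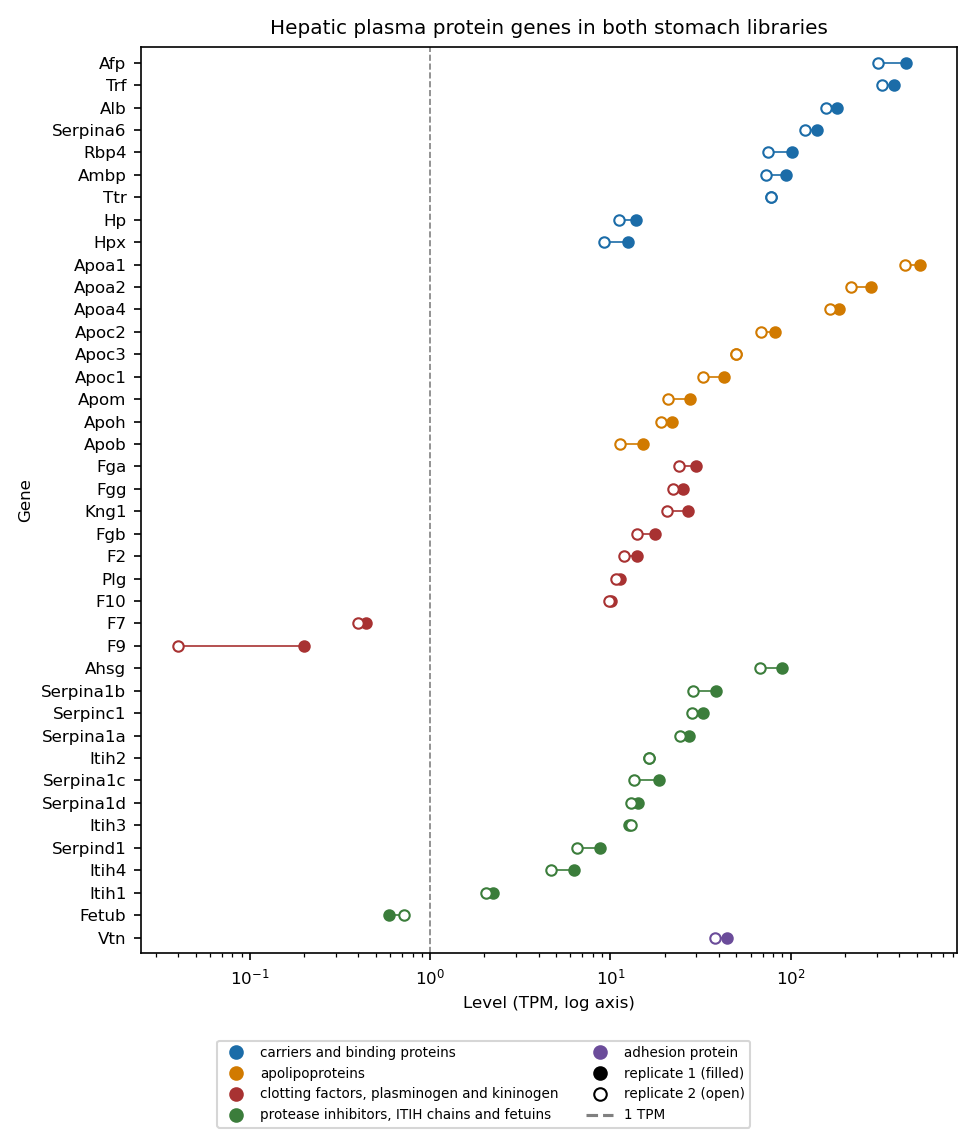
Level in TPM (log axis) of each of the 40 genes, grouped and coloured by the role of the protein, with replicate 1 as filled and replicate 2 as open circles and the dashed line at 1 TPM. Apoa1, Afp and Trf lie highest, the libraries lie close together for nearly every gene, and F7, F9 and Fetub lie below 1 TPM in both.

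Among the carriers and binding proteins, all 9 genes were detected, with a median of 90.005 ± 17.4 TPM. Afp, which encodes alpha-fetoprotein, the main plasma protein of the early fetus, stood at 434 TPM in replicate 1 and 303 TPM in replicate 2. Alb, which encodes serum albumin, the most abundant protein of adult plasma, stood at 181 and 157 TPM. Both genes lie on chromosome 5 with a gap of 14134 bases between them (Alb from 90460897 to 90476602 and Afp from 90490737 to 90508907, GRCm38). Afp was above Alb in both pools, by 1.26 and 0.95 on the log2 scale, a mean of 1.11 ± 0.22 (2.15-fold). Among all protein-coding genes Afp ranked 354th and Alb 837th by mean TPM. Afm, which encodes afamin, a vitamin E-binding protein, and follows Afp on the chromosome, stood at 5.63 and 5.09 TPM, far below both.

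The promoters of Alb and Afp are shown because both carry a close match to a palindromic motif known from hepatic promoters. The motif was searched as GTTAAT, 1 base of any kind and ATTAAC, with up to 2 mismatches over the 12 letters, which reads the same on both strands. The 120 bases before the transcription start given by RefSeq are printed 5′ to 3′ with the matched stretch in capitals, from RefSeq on GRCm38.p6, at chr5:90460750-90460869 (plus strand) for Alb and chr5:90490594-90490713 (plus strand) for Afp.
Alb: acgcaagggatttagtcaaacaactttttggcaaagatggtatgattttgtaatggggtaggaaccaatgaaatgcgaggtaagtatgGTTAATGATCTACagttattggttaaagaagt
Afp: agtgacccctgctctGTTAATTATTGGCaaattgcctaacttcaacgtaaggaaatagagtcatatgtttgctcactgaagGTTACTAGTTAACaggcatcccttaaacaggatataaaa
The Alb match begins 32 bases before that start, and the Afp matches begin 105 and 39 bases before it. A promoter window of 300 bases (250 before and 50 after the start) was at hand for 32 of the 40 genes, in 35 windows. The same motif lay in the windows of 6 of these genes, Alb, Afp, Apom, Fga, Fgb and F2, which is 17.1% of the 35 windows beside 1.36% of all 32851 windows of the same length. A match describes the letters and is not a measured binding site.

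The other carriers split into an abundant and a low group. Trf, which encodes transferrin, the iron carrier of plasma, stood at 372 and 322 TPM. Serpina6 encodes the glucocorticoid-binding globulin and stood at 139.7 and 119.5 TPM. Rbp4, the gene of the retinol carrier, stood at 102 and 74.9 TPM.
Ttr, the gene of transthyretin, which binds retinol-binding protein and carries thyroid hormone, stood at 77.7 TPM in each library. Rbp4 was thus above Ttr in replicate 1, by 0.40 on the log2 scale, and below it in replicate 2, by a difference of -0.05, so the order of the pair was not the same in both pools. Ambp encodes the precursor of alpha-1-microglobulin and bikunin and stood at 93.7 and 72.8 TPM. Hp and Hpx, the genes of the haemoglobin and haem scavengers haptoglobin and haemopexin, were the lowest carriers, at 13.8 and 11.2 TPM for Hp and 12.45 and 9.17 TPM for Hpx.

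The Trf value depends on which transcripts are counted in it. The full-length coding transcript Trf-201 took 68.4% of the gene's TPM in replicate 1 and 66.3% in replicate 2, or 254 and 213 TPM. Trf-209, annotated as a retained intron and 433 bases long, took a further 27.9% and 17.2%. In addition, 79.8% of the leading Trf transcript, counted in stretches of 50 bases, is also present in Gm20425, an annotated gene whose span overlaps Trf. Gm20425 drew 455 expected counts in replicate 1 and 1.47 in replicate 2, beside 20977 and 10807 for Trf, so it took a small part of the shared sequence in both libraries.

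Apolipoproteins, the protein parts of lipoprotein particles, held the highest single gene of the set, and all 9 were detected with a median of 49.97 ± 0.07 TPM. The middle gene was Apoc3 in both libraries, so this SD is the spread of Apoc3 alone. The summed level of the 9 genes was 1225 TPM in replicate 1 and 1010 TPM in replicate 2. Apoa1, the main protein of high-density lipoprotein, stood at 521 and 428 TPM and ranked 255th among protein-coding genes. Apoa2, the second protein of these particles, stood at 281 and 215 TPM. Apoa4, made by intestine and liver and found on chylomicrons, stood at 185 and 164 TPM. The remaining members lay between 13.2 TPM for Apob and 75.2 TPM for Apoc2 by mean level. Apoc2, the activator of lipoprotein lipase, stood at 81.8 and 68.6 TPM, and Apoc3, which restrains that enzyme, at 50.02 and 49.92 TPM. Apoc1 stood at 42.4 and 32.8 TPM. Apom, which carries sphingosine-1-phosphate, stood at 27.5 and 20.9 TPM, and Apoh, a phospholipid-binding plasma protein, at 22.0 and 19.0 TPM. Apob, the large scaffold of chylomicrons and very-low-density lipoprotein, stood at 15.1 and 11.2 TPM. Mttp, whose product loads lipid onto that scaffold, was above Apob in both libraries, at 47.6 and 43.1 TPM, a difference of 1.79 ± 0.20 on the log2 scale. The Apob level in this difference includes a transcript of 1118 bases, and the full-length Apob-202 alone stood at 8.64 and 6.49 TPM.

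Neighbouring apolipoprotein genes were not at equal levels. Apoa1, Apoc3 and Apoa4 lie within 46228580 to 46243459 of chromosome 9, with gaps of 2466 and 5059 bases. Apoa1 was 9.44-fold above Apoc3 (a log2 difference of 3.24 ± 0.20) and 2.71-fold above Apoa4 (1.44 ± 0.08), and the order Apoa1, Apoa4, Apoc3 held in both pools. On chromosome 7, Apoc2 lies 11539 bases from Apoc1 with Apoc4 between them. Apoc2 was 2.01-fold above Apoc1, and Apoc4 was below both, at 15.0 and 10.9 TPM. Apoe, the next gene of that cluster and the receptor ligand of lipoprotein remnants, was higher than all of these, at 353 and 319.7 TPM. The leading Apoc2 transcript shares 99.1% of its sequence, in stretches of 50 bases, with the annotated read-through gene Gm44805. The deposited tables counted transcripts of that gene under Apoc2, and the larger of them took 7.57% and 3.08% of the Apoc2 level.

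**Figure D2:**
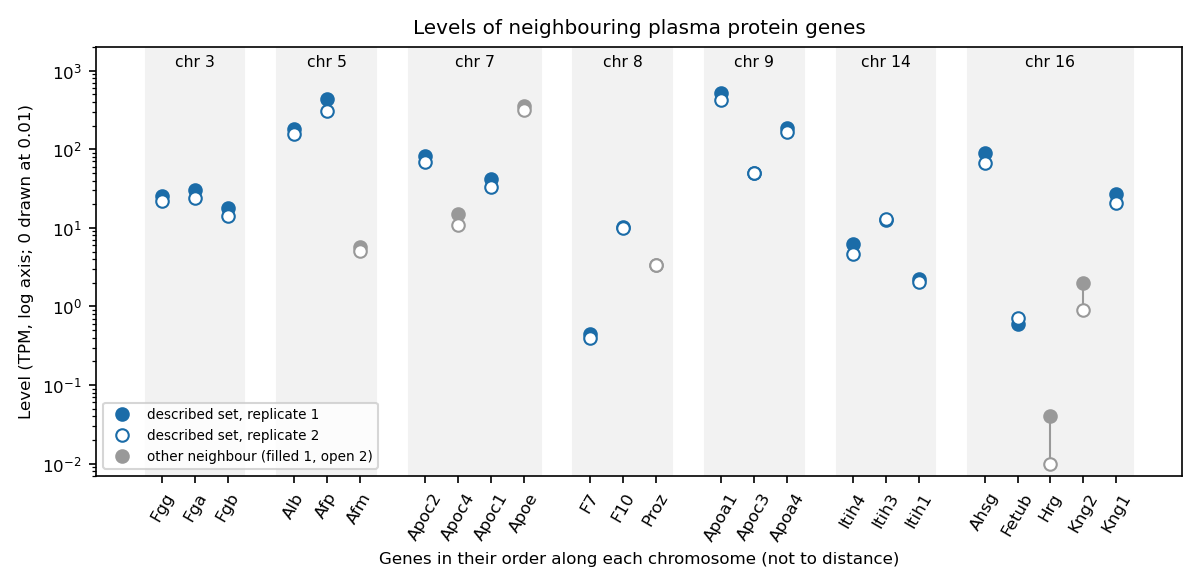
Level in TPM (log axis) of plasma protein genes that lie beside each other, in their order along 7 chromosomes, with replicate 1 filled and replicate 2 open; blue circles are genes of the described set and grey circles are other neighbours. The fibrinogen genes on chromosome 3 lie close together, whereas Ahsg and Fetub on chromosome 16 and F7 and F10 on chromosome 8 lie far apart.

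Clotting genes were lower and less complete, with 7 of 9 detected and a median of 13.0 ± 1.53 TPM. The 3 chains of fibrinogen, the protein of the fibrin clot, stood close together: Fga at 29.9 and 24.0 TPM, Fgg at 25.3 and 22.2 TPM, and Fgb at 17.7 and 14.1 TPM. Fgb was below Fga by nearly the same amount in both pools, with a log2 difference of -0.76 ± 0.01, and Fgg was below Fga with a difference of -0.18 ± 0.09. The 3 genes lie on chromosome 3 between 83007724 and 83049863, with gaps of 11026 and 6513 bases. The promoters of Fga and Fgb are shown because both hold the same palindromic motif as Alb and Afp. They are printed in the same way as above, at chr3:83026033-83026152 (plus strand) and chr3:83049864-83049983 (minus strand).
Fga: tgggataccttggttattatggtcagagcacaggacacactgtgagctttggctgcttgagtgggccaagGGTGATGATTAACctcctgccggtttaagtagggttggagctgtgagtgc
Fgb: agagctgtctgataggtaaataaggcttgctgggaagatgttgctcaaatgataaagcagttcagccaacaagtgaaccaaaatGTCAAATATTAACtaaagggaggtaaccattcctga
The matches begin 50 and 36 bases before the RefSeq start. The GENCODE M21 gene model of Fga begins upstream of that start, at 83026076, so the Fga match lies within that model. In the window of Fgg, no match to this motif was found, which says only that these letters are not there.

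The remaining clotting genes differed widely. Prothrombin (F2) stood at 14.1 and 11.9 TPM, plasminogen (Plg), the precursor of the clot-dissolving enzyme plasmin, at 11.3 and 10.8 TPM, and kininogen (Kng1), the precursor of bradykinin, at 26.8 and 20.6 TPM. F10, the gene of the factor X protease that activates prothrombin, stood at 10.1 and 9.86 TPM. Its neighbour F7, the gene of the protease that starts clotting with tissue factor, stood at 0.44 and 0.40 TPM, from 24 and 12 expected counts. The F10 gene begins 1498 bases beyond the end of F7 on chromosome 8. With 0.1 TPM added to each level, F10 was 19.4-fold higher (a log2 difference of 4.28 ± 0.05). The ratio of the mean TPM was 23.8, and the SD does not cover the counting error of F7. Proz, which follows F10 and encodes protein Z, stood at 3.33 and 3.37 TPM. F9, the X-linked gene of a protease that activates factor X, was the lowest of the 40, at 0.20 and 0.04 TPM from 16 and 2 counts. Its ratio of 4.59 between the libraries had an exact 95% interval of 1.08 to 41.1 from counting error alone.

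Protease inhibitors, inter-alpha-trypsin inhibitor (ITIH) chains and fetuins were detected for 11 of 12 genes, with a median of 14.3 ± 1.44 TPM. Ahsg, the gene of fetuin-A, a mineral-binding protein abundant in fetal plasma, led them at 89.5 and 67.5 TPM. Its relative Fetub lies 18884 bases away on chromosome 16 and stood at 0.59 and 0.72 TPM, from 23 and 16 counts. With 0.1 TPM added to each level, Ahsg was 103.4-fold above Fetub (a log2 difference of 6.69 ± 0.46). The ratio of their mean TPM was 119.8, the widest gap among neighbouring pairs within the 40 genes. Further along, Hrg, the gene of histidine-rich glycoprotein, drew 2 counts in replicate 1 and 0 in replicate 2. Kng2 stood at 1.97 and 0.89 TPM, below Kng1. Serpinc1, the gene of antithrombin, stood at 32.8 and 28.5 TPM, and Serpind1, the gene of heparin cofactor II, at 8.70 and 6.51 TPM. Of the Serpinc1 level, its longest transcript, Serpinc1-201, held only 2.55 and 2.62 TPM, and most of the rest lay in shorter transcripts described below.

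The ITIH heavy chains, several of which bind hyaluronan and join with bikunin in plasma, spanned a wide range. Itih2 stood at 16.4 TPM in each library, Itih3 at 12.7 and 13.0 TPM, Itih4 at 6.31 and 4.66 TPM, and Itih1 at 2.24 and 2.04 TPM. Itih3 was 5.80-fold above Itih1 (a log2 difference of 2.53 ± 0.12) and 2.35-fold above Itih4 (1.23 ± 0.33), although these 3 genes lie side by side on chromosome 14, with gaps of 5419 and 6218 bases. Ambp, which encodes the bikunin partner, was 5.01-fold above Itih2, the highest of the heavy chains. Vitronectin (Vtn), an adhesion protein of plasma and matrix, stood at 44.2 and 38.2 TPM.

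The alpha-1-antitrypsin genes Serpina1a to Serpina1d, near-identical copies that mice carry in a cluster on chromosome 12, were all detected. Serpina1b stood at 38.5 and 28.7 TPM, Serpina1a at 27.1 and 24.4 TPM, Serpina1c at 18.5 and 13.5 TPM, and Serpina1d at 14.2 and 13.0 TPM. A further copy outside the described set, Serpina1e, stood at 13.8 and 10.6 TPM. The coding sequences, 1239 bases each, are 96.3% to 98.5% identical between copies and differ at 86 positions. The 60 bases that hold most differences, 18 positions, are coding bases 1101 to 1160 in exon 5, in the part that encodes the protease-binding loop. They are shown because reads are told apart by such positions, with the positions that differ between any of the copies in capitals (GENCODE M21, GRCm38, all on the minus strand and printed 5′ to 3′). They lie at chr12:103853757-103853816, chr12:103728324-103728383, chr12:103895094-103895153, chr12:103763762-103763821 and chr12:103947100-103947159, in the order printed.
Serpina1a: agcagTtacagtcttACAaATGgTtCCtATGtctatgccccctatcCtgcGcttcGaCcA
Serpina1b: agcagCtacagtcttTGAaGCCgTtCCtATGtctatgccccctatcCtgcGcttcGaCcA
Serpina1c: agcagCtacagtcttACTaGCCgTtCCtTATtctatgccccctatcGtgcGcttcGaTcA
Serpina1d: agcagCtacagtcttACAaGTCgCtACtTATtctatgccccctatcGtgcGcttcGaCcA
Serpina1e: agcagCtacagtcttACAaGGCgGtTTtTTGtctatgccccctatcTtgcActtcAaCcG
In stretches of 50 bases, between 47.1% (Serpina1b) and 80.9% (Serpina1a) of each of the 4 leading transcripts is shared with another copy, so the split of counts between copies is uncertain. The order Serpina1b, Serpina1a, Serpina1c, Serpina1d held in both libraries. The authors deposited an interval around each level, whose confidence level is not stated. For Serpina1c it ran from 16.4 to 19.9 TPM in replicate 1, above the 12.7 to 15.2 TPM of Serpina1d. In replicate 2 it ran from 11.03 to 15.1 TPM and overlapped the 11.04 to 14.3 TPM of Serpina1d. The intervals of Serpina1b (25.6 to 30.4 TPM) and Serpina1a (21.3 to 26.4 TPM) overlapped in replicate 2 as well. Neither pair of copies was thus separated in that library.

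The transcription start windows were also searched for 5 other motifs on both strands. GTTAAT, which is one arm of the palindromic motif above and overlaps it, lay in the windows of 12 genes, or 34.3% of the 35 windows beside 7.10% of all windows. TGTTTAC, bound by FOXA factors, lay in 4 genes (11.4% beside 3.65%), and TTGCAA, bound by C/EBP factors, in 5 (14.3% beside 6.23%). TATAAA lay in 8 genes (22.9% beside 13.6%). CAAAGTCCA, a core of the HNF4 motif searched without mismatches, was found in none. Only 0.475% of all windows held it, so a match in 35 windows was unlikely at that share, and its absence says nothing about HNF4 sites. The 12 genes with GTTAAT included all 4 of the Serpina1 genes, which are copies of one another and so not separate instances.

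Both libraries used mostly the same transcripts of these genes. In the deposited tables, a single transcript was listed for 14 genes. Of the 25 detected genes with more than 1, 24 had the same leading transcript in both libraries, and 11 had 90% or more of their TPM in it in both. The exception was Serpind1, in which Serpind1-201 took 42.0% in replicate 1 and 50.2% in replicate 2 beside a transcript that is not listed in the M21 annotation. Apob divided its TPM between the full-length Apob-202 (57.1% and 57.7%) and Apob-204, a transcript of 1118 bases (42.9% and 42.3%). Serpinc1-205, a transcript of 1044 bases, held 50.03% and 45.1% of its gene. Serpinc1-204, of 742 bases and annotated as a target of nonsense-mediated decay, held 41.6% and 41.7%. Serpinc1-201, the longest at 4970 bases, held 7.77% and 9.18%. Itih4-201 took 33.8% of its gene in replicate 1 and 81.5% in replicate 2, the widest difference between libraries among leading transcripts. The gene was measured from 470 and 210 expected counts, and posterior mean values, which the authors deposited beside the TPM, gave 32.4% and 51.9% for the same transcript. Short transcripts weigh heavily in these shares, since TPM is corrected for length. The counts of 24 and 11 genes were not set against the same counts over all genes, so they describe this set alone.

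**Figure D3:**
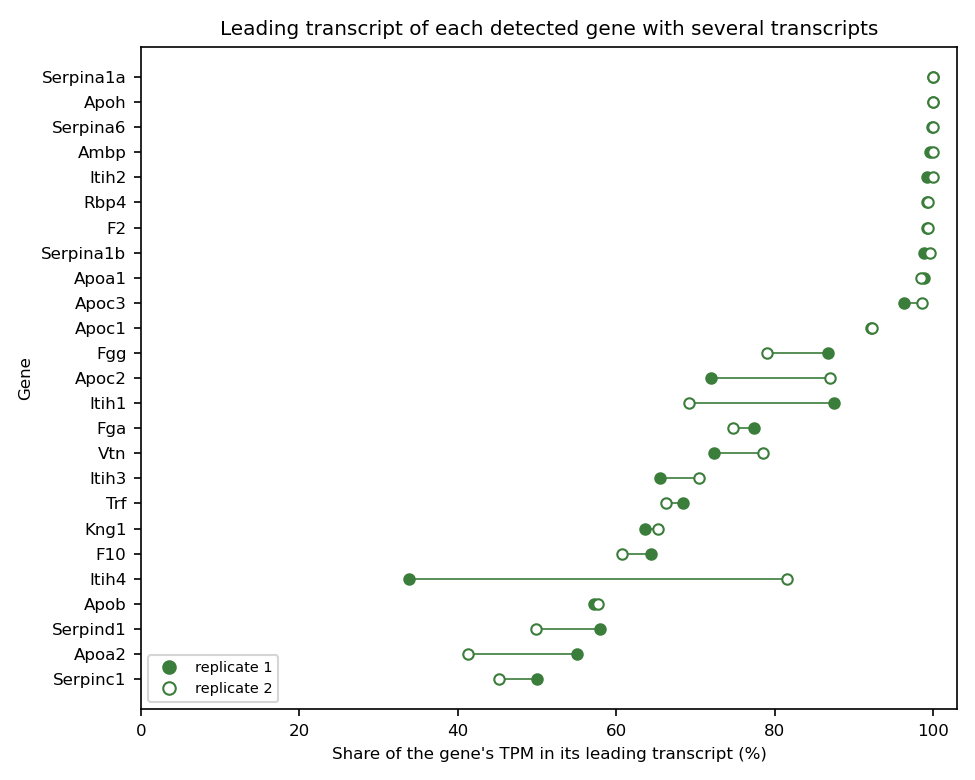
Share of each gene's TPM (%) held by its leading transcript, for the 25 detected genes with several transcripts, with replicate 1 as filled and replicate 2 as open circles. In 11 genes both circles lie at 90% or more, Serpinc1 has the lowest mean share at 47.6%, and Itih4 shows the widest gap between libraries.

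Other genes of the hepatic programme were measured beside the set. Of 46 further plasma protein genes that were matched, 25 were detected, beside the 64.3% of all protein-coding genes given above, with a median of 1.48 ± 0.01 TPM. Apoe led them, followed by the complement regulator genes Cfi (83.6 and 105 TPM) and Serping1 (79.5 and 85.3 TPM). The lowest were Serpina3k, Serpina3m, Orm2 and Mup3, which drew 0 counts in either library, where 0 allows for up to 3 counts. The acute-phase gene Saa1 stood at 0.39 and 0.12 TPM. On the log2(TPM + 0.1) scale, the median of the 40 genes lay 3.94 ± 0.25 above that of the further plasma protein genes. The members of these lists were picked by function, so the gap describes these lists and no others.

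Hepatocyte enzymes and transporters were detected for 21 of 34 genes, near the share of 64.3% among all protein-coding genes. Their median was 2.45 ± 0.46 TPM, and the median of the 40 plasma protein genes lay 3.26 ± 0.04 above theirs on the log2(TPM + 0.1) scale. Among the highest were Ass1 (172 and 189 TPM) and Arg1 (106 and 220.2 TPM), urea cycle enzymes also made outside the liver. Cps1, the first enzyme of the urea cycle, stood at 45.9 and 41.2 TPM. The lowest was Cyp2c29, a drug-metabolising enzyme of adult liver, with 0 counts in both. Cyp7a1, the rate-limiting enzyme of bile acid synthesis, and G6pc, the last enzyme of glucose release, were picked after their values were seen, and neither exceeded 0.13 TPM in either library. Among 21 hepatic transcription factors 20 were detected, at a median of 7.03 ± 0.11 TPM. Hnf4a stood at 27.6 and 34.7 TPM, Foxa3 at 26.6 and 31.3 TPM and Gata4 at 24.6 and 19.4 TPM, while Cebpb was lowest at 0.74 and 0.58 TPM. Several of these factors are also made in stomach, pancreas and intestine.

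Gene lists of other tissues were measured as well. Intestinal enterocyte genes were detected for 17 of 18, with a median of 25.2 ± 0.45 TPM. The plasma protein median lay above theirs in replicate 1, by 0.085 on the log2(TPM + 0.1) scale, and below it in replicate 2, with a difference of -0.20, so the lists were not ordered the same way in both pools. Fabp1, a fatty acid carrier of both intestine and liver, stood at 676 and 540.3 TPM, Lgals4 at 286 and 321 TPM and Fabp2, the intestinal fatty acid carrier, at 120.1 and 117 TPM. The brush-border gene Sis was at 0.03 and 0.06 TPM. Of 6 genes of the visceral yolk sac, 4 were detected, near the share of 64.3% among all protein-coding genes. They were led by Dab2 (40.4 and 38.7 TPM) and Amn (12 and 8.38 TPM). Cubn and Lrp2, which encode the large endocytic receptors of that tissue and take up several plasma proteins, were at 0.68 and 0.45 TPM and at 0.50 and 0.51 TPM. All 12 pancreatic acinar genes, all 6 islet hormone genes and all 6 biliary epithelium genes were detected, with medians of 544, 42.4 and 199.6 TPM. The biliary genes, such as Krt19 and Epcam, are also made by stomach epithelium, and islets also make transthyretin. The part of each of these tissues in the levels of the set was not tested.

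Set against the median gene, the plasma protein genes stood higher in replicate 1 than in replicate 2. The log2 ratio of replicate 1 over replicate 2, on counts scaled by TMM in edgeR, could be taken for 39 genes that passed a filter on low counts, and F9 did not pass. Its median over these genes was 0.28, beside 0.002 over all 17763 genes past the filter. Of the 39, 37 were higher in replicate 1, beside 50.4% of all genes, but with the spike-ins as the scale none of the 39 was, beside 4.63% of all genes, and the median of all genes was -0.57. No gene of the set was beyond 2-fold in either direction, beside 1.24% of all genes that were over 2-fold higher in replicate 1 and 2.34% over 2-fold higher in replicate 2. The median of the set lay 0.27 to 0.29 above the median of all genes under the 10 settings that were run; a change of scale shifts all genes alike, so this distance is fixed by construction wherever only the scale differs. With 1 library on each side no p-value can be given, and the smallest that a two-sided exact test on 2 libraries allows is 0.5.

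**Figure D4:**
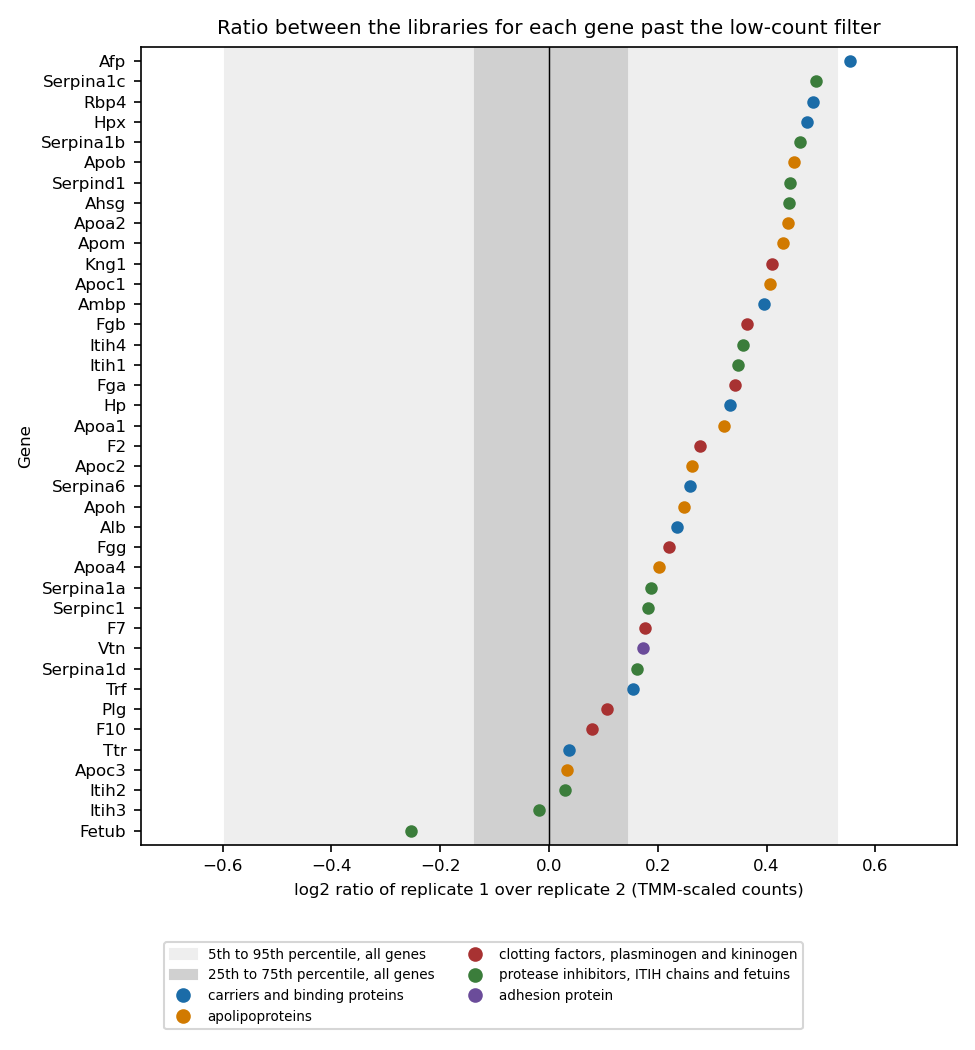
The log2 ratio of replicate 1 over replicate 2 (TMM-scaled counts) for the 39 genes past the low-count filter, coloured by role, with the range from the 25th to the 75th percentile of all genes in dark grey and from the 5th to the 95th in light grey. In total 32 genes lie to the right of the dark band, Afp alone lies beyond the light band, and on the spike-in scale no point would lie above 0, beside 4.63% of all genes.

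The single genes differed between the pools by small amounts. Their ratios ran from -0.25 to 0.55 with an SD over genes of 0.17, and 32 of the 39 lay above 0.14, the 75th percentile of all genes. The 5 highest were Afp at 0.55, Serpina1c at 0.49, Rbp4 at 0.49, Hpx at 0.47 and Serpina1b at 0.46, of which Afp exceeded the 95th percentile of all genes, 0.53. The 5 lowest were Fetub at -0.25, Itih3 at -0.02, Itih2 at 0.03, Apoc3 at 0.03 and Ttr at 0.04, and on the spike-in scale none of these genes was higher in replicate 1, like all but 4.63% of all genes. The Fetub value rests on 23 and 16 counts. Its ratio at the same TMM scaling, without a prior count, had an exact 95% interval of -1.26 to 0.74 on the log2 scale. By role, the median ratio was 0.33 for carriers, 0.32 for apolipoproteins, 0.25 for clotting genes and 0.27 for inhibitors and their relatives, and differences between roles were not tested.

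The other lists did not all share this value. Further plasma protein genes had a median ratio of 0.10, hepatocyte enzymes 0.01, hepatic transcription factors 0.16, yolk sac genes 0.13 and enterocyte genes 0.03. On the spike-in scale these medians were -0.43 for further plasma protein genes, -0.57 for hepatocyte enzymes, -0.41 for transcription factors and -0.55 for enterocyte genes, beside -0.30 for the 39 genes of the set. Under TMM scaling Arg1 was lower in replicate 1, at -1.02, and Saa4, a low gene at 0.58 and 0.24 TPM, stood at 1.15. Islet hormone genes had a median of 0.23 and stomach mesenchyme genes of 0.30, close to the plasma protein genes. Macrophage genes stood at 0.08, erythroid genes at 0.12, acinar genes at -0.14 and biliary genes at -0.25. Skeletal muscle genes had a median of 4.38, with 13 of 13 over 2-fold higher in replicate 1, and stomach epithelium genes of -0.65, with 15 of 16 lower in replicate 1. Leaving the skeletal muscle genes out of the scaling gave the plasma protein genes a median of 0.28 again. Only 13 of 17763 genes were left out, so the scale could hardly move, and the part of muscle tissue in the ratio was not tested. The part of stomach epithelium, of other tissue in the pools and of depth in the ratio was not tested.

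**Figure D5:**
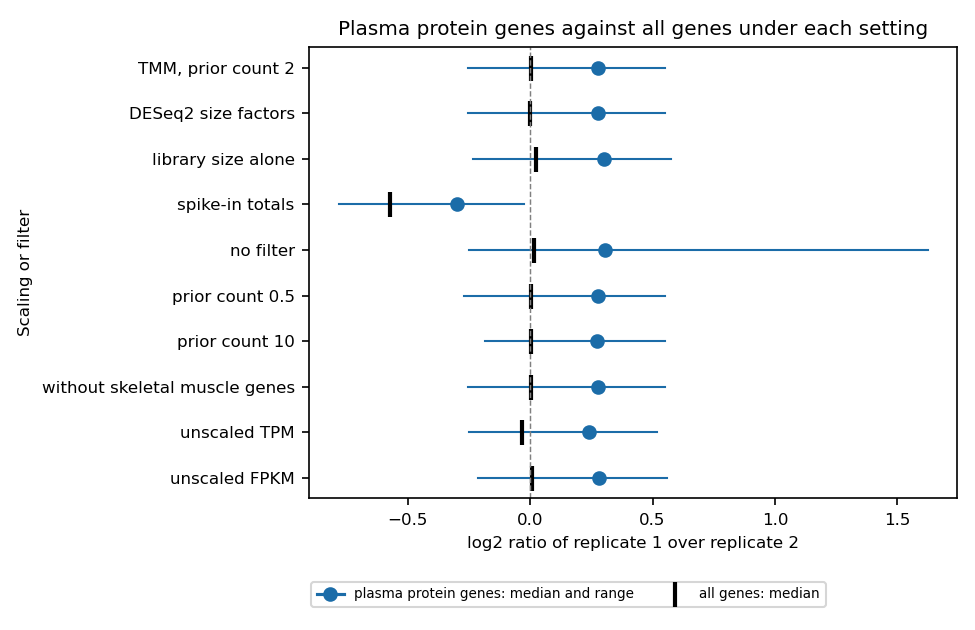
Median (circle) and range (line) of the log2 ratio of replicate 1 over replicate 2 for the plasma protein genes, and median for all genes (black bar), under 10 scalings or filters. A change of scale shifts circle and bar together; the circle lies at 0.28 with TMM and at -0.30 with spike-in totals, and the long line with no filter ends at F9.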

How the data were processed

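Total RNA libraries of 2 pools of stomachs were analysed as 1 group, so no conditions were compared. For each library the authors deposited tables of genes and of transcripts, made on mm10 with annotation M4, per the file headers and text notes. The aligner is not given in the sources used here, nor is the quantifier. Expected counts were deposited by the authors as estimated reads per feature, with shared reads divided. TPM and FPKM were deposited by the authors as values corrected for length and depth. The share of each transcript was deposited by the authors as a percent of its gene's TPM, with posterior means and interval bounds whose level is not stated. Symbols came from GENCODE M21 and promoters from RefSeq (GRCm38.p6); 32 of the 40 genes had a window, and Apoc1, Apoc3, Hp, Kng1, Plg, Serpina6, Trf and Ttr had none.

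Levels are mean TPM ± SD over the libraries; differences used a pseudocount of 0.1 TPM. For ratios, expected counts without spike-ins were rounded, filtered with filterByExpr with a single group, scaled by TMM (factors 1.01 and 0.992) and given a prior count of 2 in edgeR 4.0.16 (R 4.3.3). DESeq2 1.42.0 size factors were an alternative. The ratio step was tested on simulated data. Other steps used pandas 2.3.3 and scipy 1.17.1 in Python 3.11.15, with numpy 2.4.6, and matplotlib 3.10.9 for plots. Features with numeric identifiers drew 74.99 and 27 counts and stayed out of library sizes.

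All 40 genes could be named, with the 3 highest and the lowest of each other list, list genes beyond 2-fold, genes of the hepatic, intestinal, yolk sac and islet lists that bear on one of the 40, and the 5 highest and lowest ratios. The neighbours of the 40 genes and genes that share their sequence were named besides, and Saa1, Cyp7a1 and G6pc were picked after their values were seen. The 40 genes and the lists were chosen with earlier results of these data known. C5 and Lpa were not matched. Alternatives changed the unit, estimate, threshold, pseudocount, filter, scaling or library. Some list genes that this rule would name are not reported here.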

Additional observations from a re-analysis of the deposited data

How the results depend on the processing

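In all, 106 alternatives were run, and 2 turned the direction of a value: the ratio with spike-in totals and the difference from enterocyte genes without replicate 2. With 2 libraries, the value of each alone lies within 1 SD of their mean by construction. FPKM in place of TPM gave a median level of 16.5 and a sum of 1912 for the 40 genes. The median log2 ratio of 0.28 became 0.30 with library size alone, 0.30 with no filter, 0.24 on unscaled TPM and -0.30 with spike-in totals, where 0 genes were higher in replicate 1 instead of 37, beside 4.63% of all genes instead of 50.4%. With no filter 1 gene, F9, was over 2-fold higher in replicate 1. Fgb minus Fga was -0.73 with a pseudocount of 1. The gap to hepatocyte enzymes, 3.26, was 2.87 with a pseudocount of 1, 3.31 with 0.01, 3.09 from posterior means and 1.75 over detected genes alone; that to further plasma protein genes, 3.94, was 3.34 with a pseudocount of 1 and 1.70 over detected genes alone, since low genes then drop out. Taking each library alone, the difference from enterocyte genes was -0.20 without replicate 1 and 0.085 without replicate 2. Alternatives without Serpina1a to Serpina1d, or with only genes at a mean of 10 TPM or more, were added after the data were seen and changed no direction. No paired analysis was possible because both libraries belong to 1 group. Depth limits F7, F9 and Fetub, with 2 to 24 counts per library.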

Other observations

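The deposited TPM of some abundant plasma protein genes lay outside the interval that the authors deposited beside it. Afp and Apoa1 lay above it in both libraries, and Alb and Apoa4 in replicate 2. Afp, for example, stood at 434 TPM in replicate 1 beside an interval of 421 to 431 TPM around a posterior mean of 426 TPM. Such values made up 3.13% of detected protein-coding genes in replicate 1 and 6.74% in replicate 2. The level that the interval stands for is not stated in the tables.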
